A study of Homo sapiens with 12 samples.

Results

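The genes described here are interferon-stimulated genes and the sensors of foreign RNA that lie upstream of them, a list of 49 members picked by name. Of these, 35 were listed in the tables analysed, among 12756 genes in all, and they are described across 3 knockouts in HCT116, an established colorectal carcinoma cell line. The 14 members not listed were OAS1, OAS2, MX1, MX2, IFI16, IFI27, IFI44, IFI44L, DHX58, IFITM1, SAMD9L, XAF1, RSAD2 and BST2, and their expression is not analysed here. The sources used here do not give a limit on low values, and every count of expression calls refers to the 35 that were listed.

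The 4 groups of HCT116 cells each had 3 labelled replicate libraries of poly(A) RNA, taken 48 hours after seeding. They were the parental line, the AGO2_KO cells lacking AGO2, the ANKRD52_KO cells lacking ANKRD52, and the ANKRD52;CSNK1A1_KO cells lacking both ANKRD52 and CSNK1A1, called the double knockout below. AGO2 is the Argonaute protein loaded with microRNAs, ANKRD52 a regulatory subunit of protein phosphatase 6, and CSNK1A1 the kinase casein kinase 1 alpha; the series title places them in a phosphorylation cycle of Argonaute. No interferon or virus is named in the labels for any group, and the labels do not say whether a knockout was 1 clone or a pool, or whether the replicates were separate cultures, so the p-values reflect the spread among the libraries alone, and that spread may be technical.

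Interferons are secreted when sensors such as RIG-I (DDX58), MDA5 (IFIH1) and TLR3 meet double-stranded or otherwise foreign RNA and signal, the first pair through the mitochondrial adaptor MAVS, to the factors IRF3 and IRF7. Secreted interferon then acts on receptors coupled to JAK kinases, and a complex that holds STAT2 and IRF9 switches on many antiviral genes through a DNA element called the interferon-stimulated response element. Epithelial cells keep a low tonic level of many of these genes without infection.

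The values are the authors' own log2 fold changes against the parental line, with genes called at their adjusted p under 0.05. A level per group, in CPM (counts scaled to library size), was implied from the deposited mean level and the 3 fold changes, and carries no error of its own. Values of single libraries were not analysed here, depth is unknown, and nothing can be said of whether single libraries of the groups overlap. CPM is not corrected for transcript length, so levels are compared only within a gene. Of the targeted genes, AGO2 had a log2 change of -1.07 in its knockout and CSNK1A1 one of -2.42 in the double, while ANKRD52 had 0.03 in its own knockout, -0.65 in the double and 0.85 in the AGO2 knockout (authors' deposited tables), so its RNA level does not check the ANKRD52_KO label. Of the epithelial markers 6 of 8 were listed, with a summed implied level of 3199 to 8579 CPM over the groups, highest in the double knockout, and CDX1 and CEACAM5 were not listed. Most of the double's sum came from KRT8, KRT18 and KRT19 (4412, 1811 and 1601 CPM). In the ANKRD52 knockout 3 of the 6 were called lower (50%, against 6.04% of all genes) in the authors' deposited table. These were CDH1 at -1.33, ELF3 at -1.10 and EPCAM at -0.81. Of the 6, 5 were higher in the double than in the ANKRD52 knockout (83.3%, against 18.1% of genes tested), with a median difference of 1.41 over the list. Against the parental line 4 of the 6 were called higher in the double (66.7%, against 22.9% of all genes). EPCAM (0.13, adjusted p = 0.596) and ELF3 (-0.47, 0.158) were not called there by the authors' edgeR test. Of the leukocyte markers 2 of 10 were listed, summing to 2.65 to 9.70 CPM, with LYZ at 0.0788 CPM in the parental line and 8.63 CPM in the double knockout, and CD68 at 4.18 and 1.07 CPM. PTPRC, CD3E and CD14 were not listed. Of the fibroblast and endothelial markers 3 of 10 were listed, summing to 13.6 to 19.1 CPM. The part of these markers in the results was not tested, and in bulk RNA fewer cells expressing a gene and less RNA per cell cannot be told apart.

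Many antiviral genes are switched on through the response element, as described above. It was therefore looked for in the RefSeq promoter windows (build GRCh38.p14, from 250 bases before to 50 after a transcript start). The search took the letters GAAANNGAAA and their reverse complement TTTCNNTTTC, and overlapping matches were each counted. A window was found for 40 of the 49 members, DDX58 by a synonym. Of the members that were listed in the tables and had a window, 17 of 29 (58.6%) held a match, and of those not listed 7 of 11 (63.6%). Among the other listed genes 358 of 10043 (3.56%) did, a gene counting if any of its windows held a match. Counted by single windows, 50.9% of the members' 55 windows held a match, against 3.57% of all 35116 windows of this length. The second interferon element, the gamma-activated site, searched as TTCNNNGAA (its own reverse complement), was found in 5 of the 29 (17.2%), namely TLR3, IRF1, IRF9, IFI35 and PARP14, against 8.27% of the other listed genes. A match is a string of letters and no measured binding site.

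**Figure D1:**
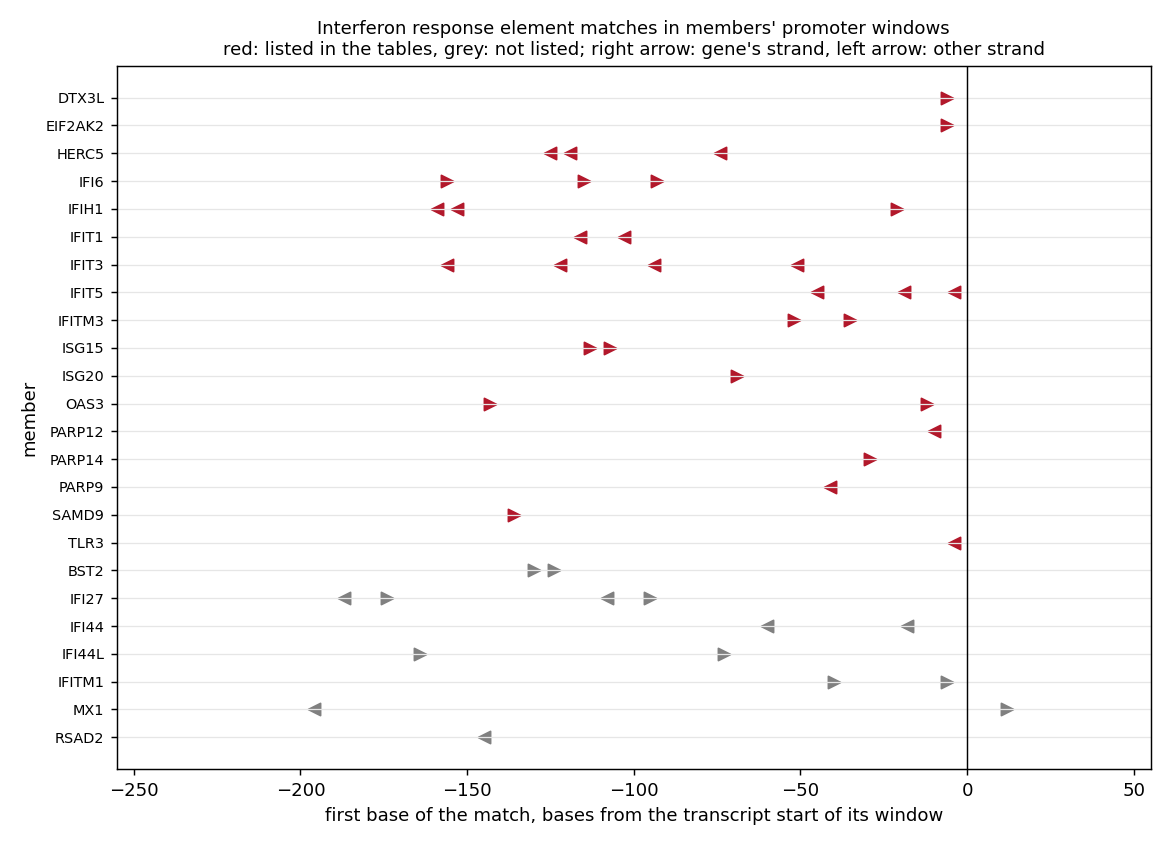
Positions of the response element letters in the members' promoter windows, as bases from the transcript start of the window (x axis) for each member with a match (y axis). Red marks the 17 members listed in the tables and grey the 7 that were not, and 1 match, in MX1, starts downstream of the start.

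The stretches below show the match nearest the start in part of the listed members that held one. Each is given as 30 bases read 5′ to 3′ on the gene's own strand with the match in capitals. PARP9, printed here, was called in no comparison. ISG20, IFIH1, IFITM3, HERC5, PARP14 and EIF2AK2 also held a match and are not printed. Positions are those of GRCh38.p14, followed by the number of bases from the first base of the match to the start.
IFIT1, chr10:89392510-89392539, plus strand, 103 bases before the start: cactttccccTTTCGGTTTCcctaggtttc
IFIT3, chr10:89332468-89332497, plus strand, 51 bases before the start: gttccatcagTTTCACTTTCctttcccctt
IFIT5, chr10:89414554-89414583, plus strand, 4 bases before the start: atttcttaagTTTCAGTTTCtgagcgctcg
TLR3, chr4:186069142-186069171, plus strand, 4 bases before the start: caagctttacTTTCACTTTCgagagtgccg
OAS3, chr12:112938452-112938481, plus strand, 12 bases before the start: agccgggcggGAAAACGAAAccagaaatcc
ISG15, chr1:1013380-1013409, plus strand, 107 bases before the start: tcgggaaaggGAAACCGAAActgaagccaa
SAMD9, chr7:93118096-93118125, minus strand, 136 bases before the start: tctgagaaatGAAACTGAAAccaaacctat
PARP12, chr7:140062942-140062971, minus strand, 10 bases before the start: ccggggccgcTTTCGGTTTCgtttcccgcc
IFI6, chr1:27672266-27672295, minus strand, 93 bases before the start: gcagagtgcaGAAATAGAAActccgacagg
DTX3L, chr3:122564322-122564351, plus strand, 6 bases before the start: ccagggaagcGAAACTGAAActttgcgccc
PARP9, chr3:122564322-122564351, minus strand, 41 bases before the start: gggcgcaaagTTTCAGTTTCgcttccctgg

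DTX3L and PARP9, transcribed away from each other, hold 1 and the same match, read from opposite strands at the same positions. IFIT5, IFI6, IFIH1 and HERC5 held 3 matches each and IFIT3 4 over both of its windows.

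Against the parental line, more members were called higher in the AGO2 knockout and the ANKRD52 knockout than among all genes, and few were called lower. In the AGO2 knockout 7 of 35 were higher (20.0%, against 3.38% of all 12756 genes) and 1 was lower (2.86%, against 2.72%). In the ANKRD52 knockout 14 were higher (40.0%, against 7.62%) and 0 lower (against 6.04%; by the authors' edgeR test, with 20 members at an unadjusted p under 0.05 in either direction). In the double knockout 13 were higher (37.1%, against 22.9%) and 4 lower (11.4%, against 20.1%), so here the members' share of rises lay closer to that of all genes. The members' median log2 fold change was 0.40, 0.41 and 0.27 in the AGO2, ANKRD52 and double knockout, against 0.00, 0.00 and 0.01 over all genes. The 3 comparisons share the parental libraries, so they are given side by side only. The authors' likelihood ratios were also read against the F distribution (1 and 8 degrees of freedom). This called 0 members in the AGO2 knockout (15 at an unadjusted p under 0.05) and 0 in the ANKRD52 knockout (17 at an unadjusted p under 0.05). Over all genes it called 0 in the AGO2 and 3 in the ANKRD52 knockout. In the double it called 14 members, and the count over all genes there is not given here.

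**Figure D2:**
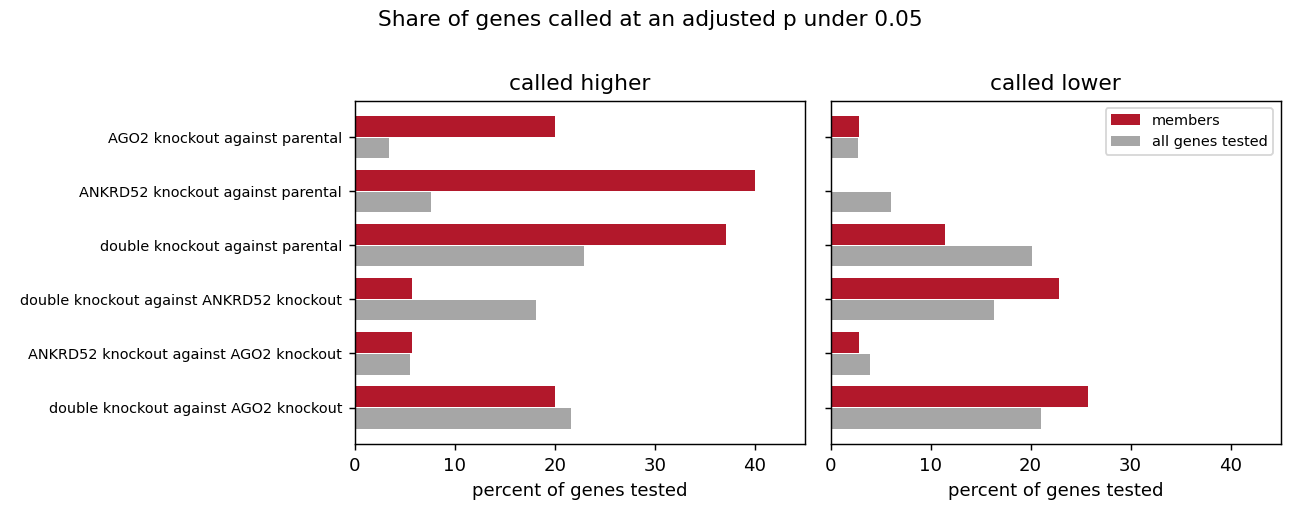
Percent of genes called higher (left) and lower (right) at an adjusted p under 0.05 (x axis) in each of 6 comparisons (y axis), for the 35 members (red) and all genes tested (grey). The red bar is the longer one for rises in all 3 comparisons with the parental line, with 20.0%, 40.0% and 37.1% of members.

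TLR3, IFIT2, SAMD9 and PARP12 were called higher in each of the 3 knockouts, though IFIT2 and PARP12 did not pass an adjusted p of 0.01 in the double. IFIT1 and OAS3 were called higher in both single knockouts and not in the double. DDX58, IFI6, IFITM2, IRF7 and IRF9 were called higher in the ANKRD52 and double knockouts and not in the AGO2 knockout. In the AGO2 knockout these 5 also lay above 0, with log2 fold changes of 0.31 to 0.45. Of the 5, only IRF7 was called different between the ANKRD52 and AGO2 knockouts. A call in 1 knockout and not in another is no test of the difference between them. IFIT3 was called in the AGO2 and double knockouts. STAT2, DTX3L and IFIT5 were called higher against the parental line in the ANKRD52 knockout alone, and MAVS, HERC6 and ISG20 in the double alone. Those called lower were UBE2L6 in the AGO2 knockout and ISG15, OASL, OAS3 and IFIT5 in the double. The other 14 members were called in no comparison with the parental line.

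**Figure D3:**
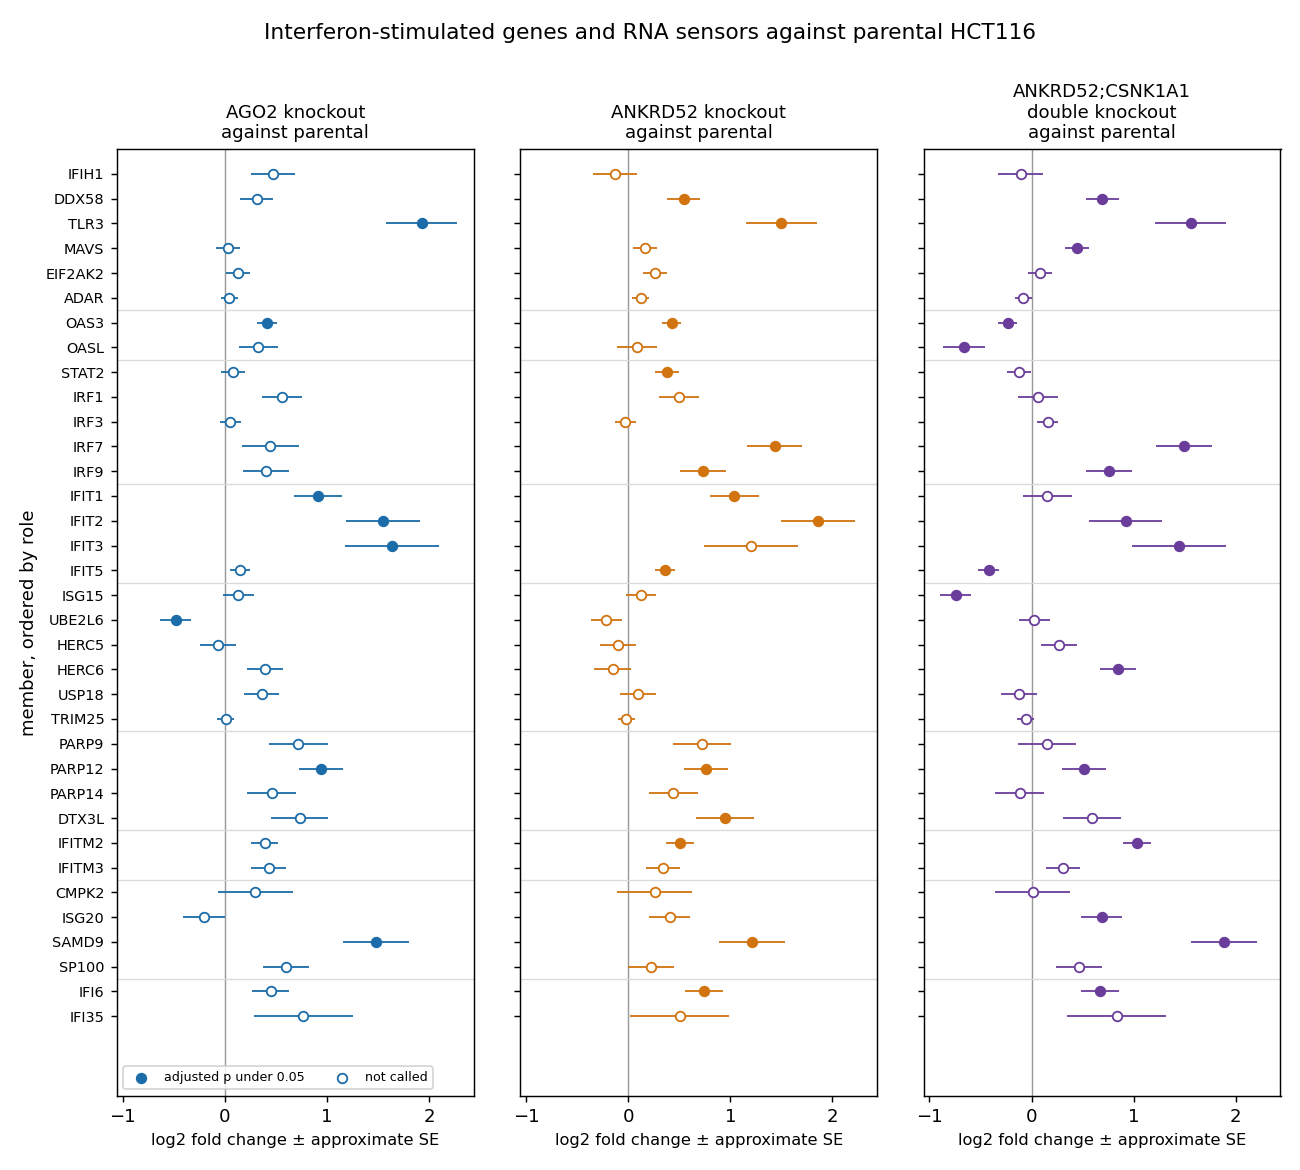
The authors' log2 fold change against the parental line (x axis, bars are 1 approximate standard error) for the 35 members in order of role (y axis), in the AGO2, ANKRD52 and double knockout. Filled points passed an adjusted p of 0.05; TLR3, IFIT2, SAMD9 and PARP12 are filled and right of 0 in all 3 panels.

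Among the sensors, the endosomal receptor of double-stranded RNA TLR3 rose in every knockout. Its implied level was 1.57 CPM in the parental line, 5.96 in the AGO2 knockout, 4.43 with ANKRD52 lost and 4.61 in the double. Every knockout thus stood above the parental line, by log2 values of 1.93, 1.50 and 1.56, as the authors' deposited tables give them (approximate standard error 0.35 in each, adjusted p = 2.05e-05, 0.000668 and 6.29e-05). DDX58, the cytosolic sensor RIG-I, had implied levels of 18.2, 22.6, 26.6 and 29.4 CPM in the same order of groups. Its log2 fold changes in the authors' deposited tables were 0.31 (adjusted p = 0.246), 0.54 (0.0117) and 0.69 (0.000134), so it passed in the ANKRD52 and double knockouts. MAVS, the adaptor through which RIG-I and MDA5 signal, rose in the double knockout only as far as the calls go, from 369 to 501 CPM (log2 fold change 0.44, adjusted p = 0.00108, in the authors' deposited table).

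IFIH1, the sensor MDA5, was at 10.7, 14.8, 9.72 and 9.88 CPM and passed in no comparison with the parental line, its deposited log2 fold changes being 0.47 in the AGO2 knockout (adjusted p = 0.168), -0.13 and -0.11. EIF2AK2, the kinase PKR that halts translation on binding double-stranded RNA, had 108, 118, 130 and 114 CPM, and ADAR, which edits adenosine to inosine in double-stranded RNA, 485, 500, 528 and 458 CPM. Their log2 fold changes in the authors' deposited tables lay between -0.08 and 0.27, and none passed.

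The OAS enzymes make the short oligoadenylates that switch on the nuclease RNase L, and OASL is a family member that lacks that activity and binds RIG-I. OAS3 rose in both single knockouts and fell in the double. Its implied levels were 90.3 CPM in the parental line, 121 in both the AGO2 and the ANKRD52 knockout and 76.7 in the double. The log2 fold changes in the authors' deposited tables were 0.42 (approximate standard error 0.10, adjusted p = 0.00164), 0.42 (0.10, 0.000441) and -0.24 (0.10, 0.0368). No OAS3 value reached an absolute log2 fold change of 0.5, and its fall in the double did not pass an adjusted p of 0.01. OASL was at 2.88, 3.62, 3.05 and 1.82 CPM and fell in the double knockout, where the authors' deposited table gives -0.66 (log2, adjusted p = 0.00492).

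Of the transcription factors, the inducible amplifier IRF7 rose in the ANKRD52 and double knockouts. It stood at 1.44 CPM in the parental line, 1.96 in the AGO2 knockout, 3.89 with ANKRD52 lost and 4.06 in the double, so that the last pair lay apart from the first. The authors' deposited tables put the rises at 2.70-fold (adjusted p = 1.38e-05) and 2.82-fold (4.78e-07), against a log2 value of 0.44 in the AGO2 knockout (adjusted p = 0.363). IRF9, the DNA-binding partner of STAT2, followed the same order with 5.57, 7.34, 9.27 and 9.43 CPM. It rose by 0.74 and 0.76 on the log2 scale in the ANKRD52 and double knockouts (adjusted p = 0.0136 and 0.00274, authors' deposited tables). The AGO2 knockout had 0.40 (adjusted p = 0.294, authors' deposited table). STAT2 had 32.5, 34.4, 42.2 and 29.8 CPM and rose in the ANKRD52 knockout alone among the comparisons with the parental line (0.38, adjusted p = 0.0158, in the authors' deposited table).

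IRF1, a factor induced by interferon gamma, stood at 13.1, 19.4, 18.6 and 13.7 CPM, and its deposited log2 fold changes of 0.56 and 0.50 in the single knockouts missed the threshold (adjusted p = 0.0596 and 0.0658). IRF3, which is present before infection and activated by phosphorylation, was at 38.6 to 44.0 CPM in the 4 groups and passed nowhere.

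The IFIT proteins bind foreign RNA ends and block its translation, and their 4 genes lie side by side on chromosome 10 in the order IFIT2, IFIT3, IFIT1, IFIT5. IFIT2 had the steepest rises of the family in the ANKRD52 knockout, at 1.69 CPM in the parental line, 4.94 in the AGO2 knockout, 6.12 with ANKRD52 lost and 3.20 in the double. In the authors' deposited tables it rose 2.93-fold, 3.63-fold and 1.89-fold (approximate standard error 0.36 on the log2 scale, adjusted p = 0.00169, 2.24e-05 and 0.0273). IFIT1 was at 6.76, 12.7, 13.9 and 7.53 CPM, so the double lay near the parental line while both single knockouts stood above it. Its rises were 1.88-fold and 2.06-fold (adjusted p = 0.00726 and 0.000474), and the double had a log2 fold change of 0.15 (0.625), in the authors' deposited tables.

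IFIT3 had 1.5, 4.67, 3.45 and 4.08 CPM and rose 3.12-fold in the AGO2 knockout and 2.72-fold in the double (adjusted p = 0.0140 and 0.00557, authors' deposited tables). Its log2 fold change of 1.20 in the ANKRD52 knockout missed the threshold (adjusted p = 0.0576, approximate standard error 0.46), so its error was wider than those of its neighbours. IFIT5 went in opposite directions, with 39.1, 43.5, 50.2 and 29.2 CPM: it rose by 0.36 in the ANKRD52 knockout (adjusted p = 0.00504) and fell by 0.42 in the double (0.000175), per the authors' deposited tables. The 17 nearest other listed genes around IFIT2 had a median log2 fold change of 0.08, -0.01 and 0.23 in the AGO2, ANKRD52 and double knockout. All 3 IFIT genes with a window held the response element, as printed above.

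**Figure D4:**
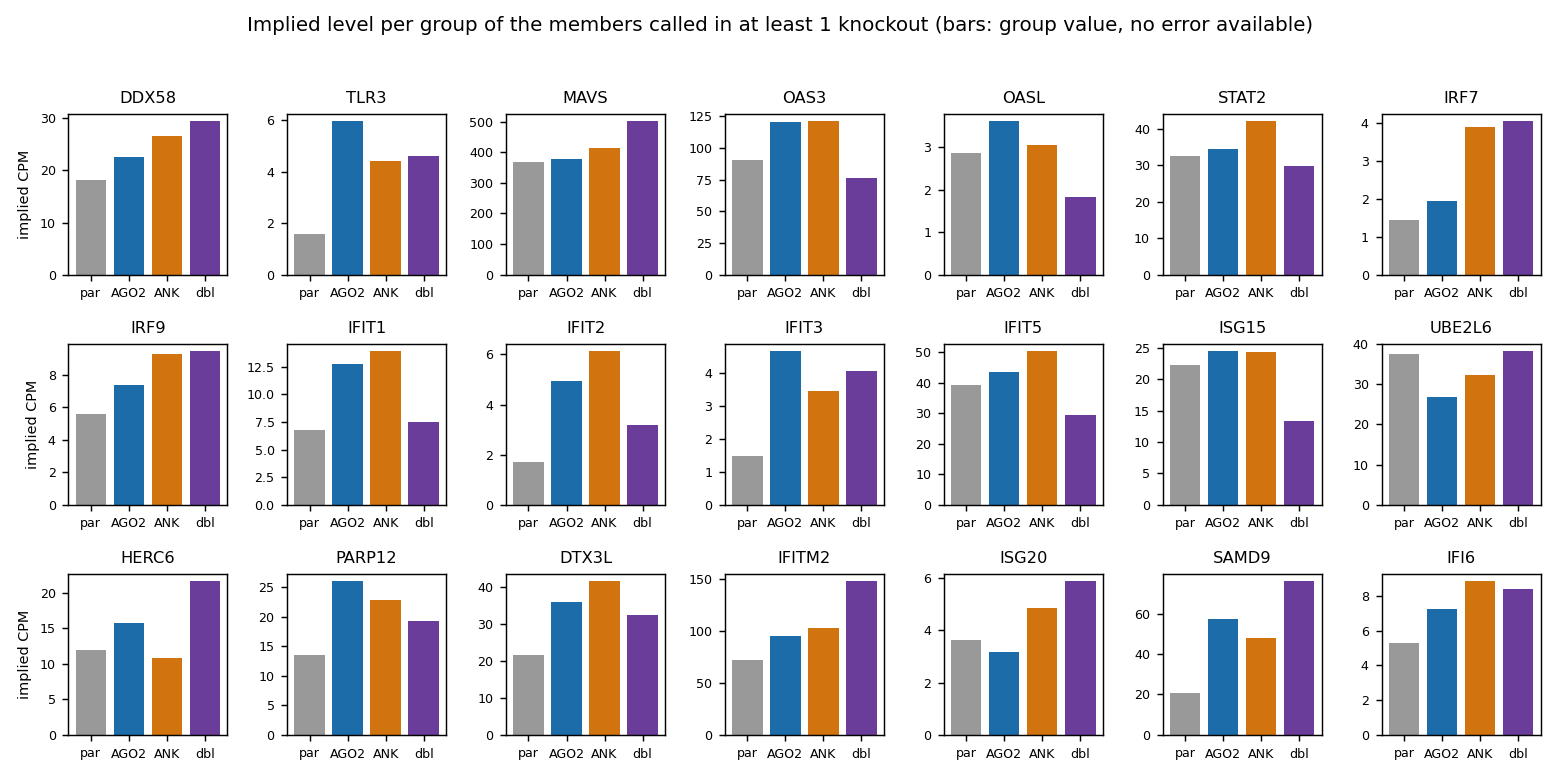
Implied level in CPM (y axis, from 0, own scale per gene) of the 21 members called against the parental line in at least 1 knockout, in the parental line (par), AGO2 knockout (AGO2), ANKRD52 knockout (ANK) and double knockout (dbl). The bars are group values without error, and the bars of IFIT1 and OAS3 are taller in both single knockouts than in the double.

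ISG15 is a ubiquitin-like protein that UBE2L6 and the HERC ligases attach to other proteins and USP18 removes. Of its 6 members 0 were called higher in either single knockout (edgeR by the authors, with 2 higher in the AGO2 knockout and 0 in the ANKRD52 knockout at an unadjusted p under 0.05), where 3.38% and 7.62% of all genes were, so the count shows nothing particular to the group. ISG15 itself was at 22.3 CPM in the parental line, 24.5 and 24.4 in the AGO2 and ANKRD52 knockouts and 13.3 in the double, where it fell by 0.74 on the log2 scale (approximate standard error 0.15, adjusted p = 9.70e-06, authors' deposited table). HERC6 went the other way in that knockout, from 12 to 21.6 CPM (0.85 on the log2 scale, adjusted p = 1.80e-05, authors' deposited table), with 15.7 in the AGO2 and 10.8 in the ANKRD52 knockout. Its neighbour on chromosome 4, HERC5, the main ligase for ISG15 in human cells, had 25.7, 24.7, 24.0 and 31.0 CPM and passed nowhere.

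UBE2L6, the conjugating enzyme, was at 37.5, 26.9, 32.4 and 38.2 CPM and fell by 0.48 in the AGO2 knockout (adjusted p = 0.0335 in the authors' deposited table). USP18, which also restrains the interferon receptor, had 4.67, 6.0, 4.99 and 4.30 CPM, and TRIM25, the ligase that activates RIG-I, 244 to 256 CPM over the groups. Neither passed against the parental line.

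PARP9, PARP14 and DTX3L lie next to one another on chromosome 3; PARP9 and DTX3L form a complex of an ADP-ribosyltransferase and a ubiquitin ligase. DTX3L was at 21.5, 35.8, 41.5 and 32.5 CPM and rose in the ANKRD52 knockout, where the authors' deposited table gives 0.95 (log2, approximate standard error 0.28, adjusted p = 0.0113). PARP9, whose window holds the same match, had 16.6, 27.4, 27.4 and 18.4 CPM. It stood higher in both single knockouts, but its deposited log2 fold changes of 0.72 and 0.72 had an approximate standard error of 0.29 and missed the threshold (adjusted p = 0.110 and 0.0733). PARP14 had 40.4, 55.6, 54.8 and 37.3 CPM and passed nowhere against the parental line.

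PARP12, an antiviral ADP-ribosyltransferase on chromosome 7, was at 13.5 CPM in the parental line, 26.0 in the AGO2 knockout, 22.9 with ANKRD52 lost and 19.2 in the double. The log2 fold changes in the authors' deposited tables were 0.94, 0.76 and 0.51 (approximate standard error 0.22, adjusted p = 0.00141, 0.00710 and 0.0442). The 20 nearest other listed genes on that chromosome had medians of 0.26, 0.04 and -0.08 in the 3 knockouts, so in the AGO2 knockout its neighbours stood above 0 as well.

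SAMD9, which limits poxvirus growth by blocking translation, is also on chromosome 7 and had the largest rise of all 35 members in the double knockout. Its implied levels were 20.6 CPM in the parental line, 57.3 in the AGO2 knockout, 47.7 with ANKRD52 lost and 75.9 in the double. The authors' deposited tables give rises of 2.79-fold, 2.32-fold and 3.69-fold (adjusted p = 0.000764, 0.00351 and 1.17e-07). The medians of its 20 nearest other listed genes were 0.37, 0.14 and 0.15 on the log2 scale, below its own 1.48, 1.22 and 1.88. The part of the chromosome 7 neighbourhood in the values of SAMD9 and PARP12 was not tested.

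ISG20, an exonuclease of single-stranded RNA, had 3.64, 3.17, 4.83 and 5.86 CPM and rose in the double knockout (0.69, adjusted p = 0.00240, authors' deposited table). SP100, a nuclear body protein, was at 37.6, 57.0, 44.0 and 51.7 CPM and CMPK2, a mitochondrial nucleotide kinase, at 3.12 to 3.84 CPM, with neither passing. IFITM2 and IFITM3 are membrane proteins that stop enveloped viruses from fusing. IFITM2 was at 72.2, 94.6, 102 and 148 CPM and rose 1.42-fold with loss of ANKRD52 and 2.04-fold in the double (authors' deposited tables, adjusted p = 0.00402 and 1.08e-12). Its log2 fold change in the AGO2 knockout was 0.39 (adjusted p = 0.0586, authors' deposited table). IFITM3, next to it on chromosome 11, had 155 CPM in the parental line and 192 to 208 CPM in the knockouts and passed nowhere. These genes are near-identical in sequence, so reads may have been split between them or lost, and their values are uncertain.

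Of the IFI genes, IFI6, a small antiviral membrane protein, had 5.29, 7.23, 8.85 and 8.42 CPM and rose in the ANKRD52 and double knockouts, by 0.74 and 0.67 on the log2 scale (adjusted p = 0.00139 and 0.00113, authors' deposited tables). IFI35, a partner of NMI, had 5.36, 9.13, 7.61 and 9.56 CPM, but its approximate standard error of 0.48 to 0.49 was the widest of all members and no value passed.

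Members with the response element in their window and members without it can be set side by side, without a test. Listed members for which no window was found are left out: IFIT2, OASL, IFITM2, IRF3, IRF7 and USP18. IFIT2, called higher in each knockout, is thus in neither set. In the AGO2 knockout 6 of 17 with it and 0 of 12 without it were called higher by the authors' edgeR test. The corresponding counts in the ANKRD52 knockout were 8 of 17 and 3 of 12, and in the double knockout 6 of 17 and 4 of 12. Both sets had median log2 fold changes above 0. With and without the element these were 0.46 and 0.31 (AGO2), 0.44 and 0.24 (ANKRD52), and 0.27 and 0.25 (double). In the double knockout ISG15, OAS3 and IFIT5 were called lower, 17.6% of the members with the element, beside 17.9% of the other genes with it and 20.8% of those without, so that share lay near the background. Over the other listed genes, 4.75% of the 358 with the element and 3.52% of the 9685 without were called higher in the AGO2 knockout, 11.5% and 7.37% with ANKRD52 lost, and 26.5% and 22.8% in the double. Outside the members each of these shares was thus somewhat higher with the letters than without. These other genes were not cleared of further interferon-induced genes, so the part of the letters alone was not tested.

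By its label the double knockout adds the loss of CSNK1A1 to that of ANKRD52, and subtracting the 2 log2 fold changes removes the parental level. ANKRD52 RNA was itself lower in the double than in the ANKRD52 knockout (-0.69, approximate adjusted p = 8.93e-06). Its part in the differences below was not tested, and the design cannot tell it apart from the loss of CSNK1A1. Of the 35 members 8 were lower in the double (22.9%, against 16.3% of 11876 genes tested) and 2 higher (5.71%, against 18.1%). The lower ones were IFIT1, IFIT2, IFIT5, OAS3, OASL, ISG15, STAT2 and ADAR, and the higher ones HERC6 and IFITM2. IFIT5 differed by -0.78 (95% interval -0.98 to -0.59, approximate adjusted p = 1.80e-13) and OAS3 by -0.66 (-0.85 to -0.47, 2.01e-10). ISG15 differed by -0.87 (-1.17 to -0.57, 1.43e-07) and HERC6 by 1.0 (0.65 to 1.35, 4.13e-07). The ANKRD52 knockout and the double were not called different for TLR3 (0.06, -0.63 to 0.74), IRF7 (0.06, -0.47 to 0.59), IRF9 (0.03, -0.41 to 0.47) or IFI6 (-0.07, -0.43 to 0.29), and these intervals are too wide to show equal levels. With the variance taken as the sum of both squared standard errors, 6 of the 35 members were called, beside 1984 of the 11876 genes. These shares lay close together.

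**Figure D5:**
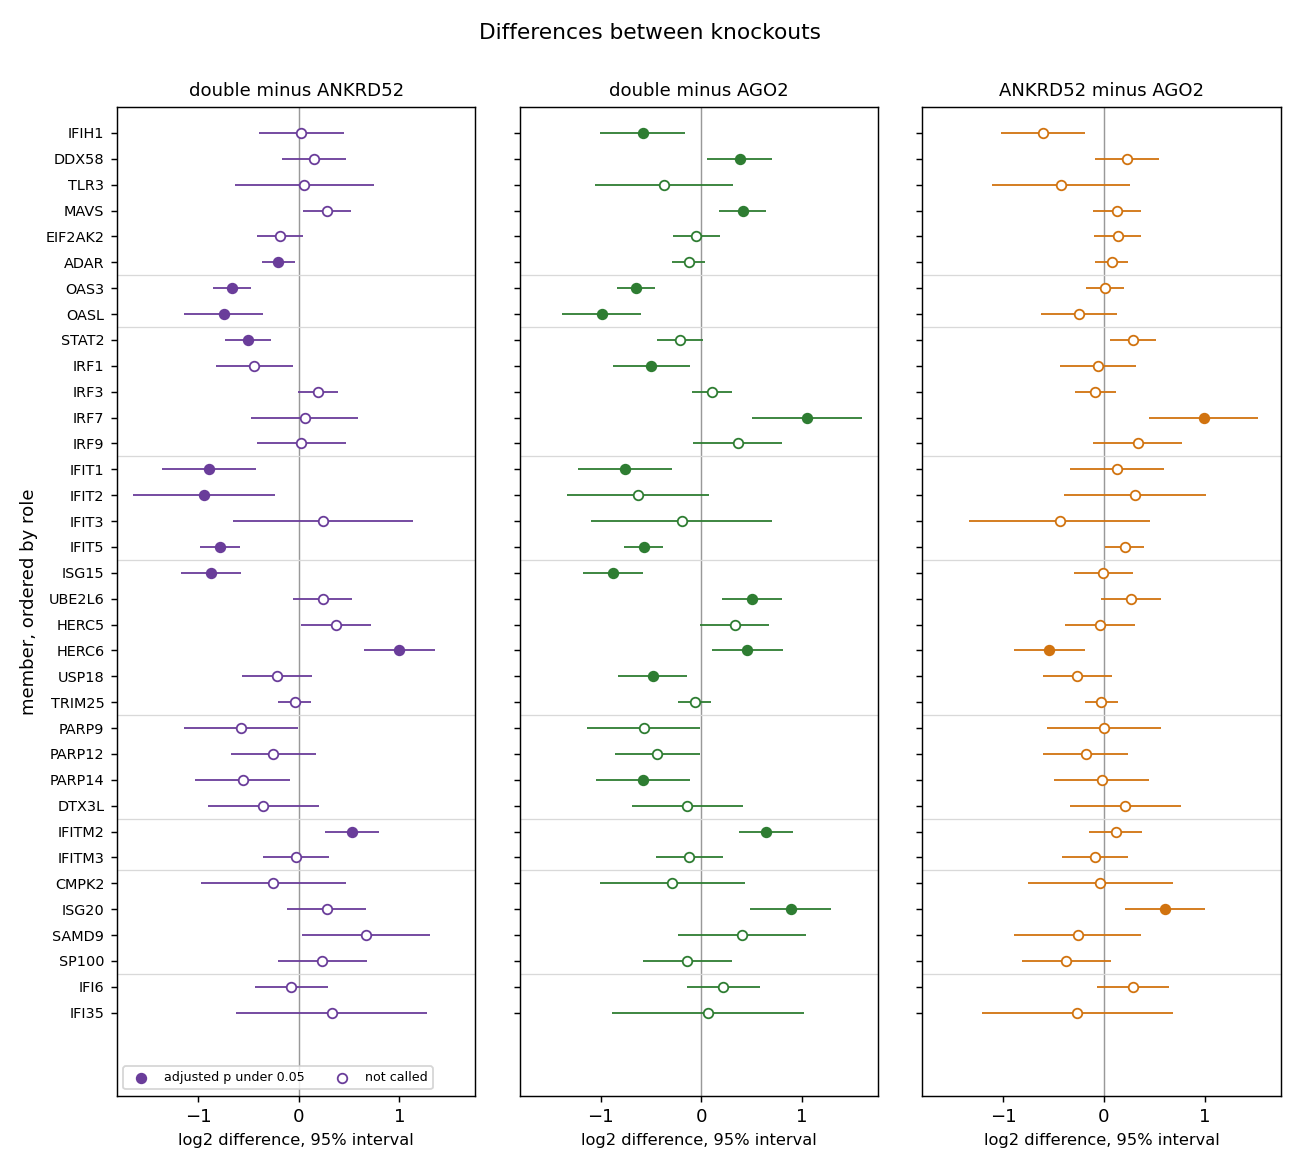
Difference between the log2 fold changes of 2 knockouts (x axis, bars are approximate 95% intervals) for the 35 members in order of role (y axis): double minus ANKRD52, double minus AGO2, and ANKRD52 minus AGO2. Filled points passed an adjusted p of 0.05, and those of OAS3, OASL, IFIT1, IFIT5 and ISG15 lie left of 0 in the first 2 panels.

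Set against the AGO2 knockout, the double was lower for 9 members (25.7%, against 21% of genes tested) and higher for 7 (20.0%, against 21.6%), shares close to those of all genes. The lower ones were IFIT1, IFIT5, OAS3, OASL, ISG15, IRF1, IFIH1, PARP14 and USP18. Among them OASL differed by -0.99 (95% interval -1.38 to -0.60, approximate adjusted p = 5.82e-06). The higher ones were IRF7, ISG20, IFITM2, UBE2L6, HERC6, MAVS and DDX58. IRF7 differed by 1.05 (0.51 to 1.59, approximate adjusted p = 0.000727). With the sum of squared standard errors as variance 7 of the 35 members were called, beside 2645 of 11876 genes. An adjusted p under 0.01 left 10 members, beside 3690 genes. In both settings the members' share lay near that of all genes.

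The ANKRD52 and AGO2 knockouts were compared in the same way and 3 members were called, 2 higher in the ANKRD52 knockout (5.71%, against 5.52%) and 1 lower (2.86%, against 3.91%). IRF7 was higher by 0.99 (95% interval 0.45 to 1.53, approximate adjusted p = 0.00825), ISG20 was higher by 0.61 (0.21 to 1.01, 0.0362), and HERC6 was lower, with -0.54 (-0.90 to -0.19, 0.0338). None of the 3 passed with a t distribution with 8 degrees of freedom (5 members at an unadjusted p under 0.05) or with the sum of squared standard errors (4 at an unadjusted p under 0.05). The members called in both single knockouts against the parental line had differences between them with intervals that spanned 0: -0.43 for TLR3 (-1.12 to 0.26), 0.13 for IFIT1 (-0.34 to 0.59), 0.31 for IFIT2 (-0.40 to 1.01), 0.01 for OAS3 (-0.18 to 0.20), -0.18 for PARP12 (-0.61 to 0.24) and -0.26 for SAMD9 (-0.90 to 0.37).

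Other genes of the pathway were counted from lists of their own. None of the 12 interferon gene names searched, IFNB1 and IFNG among them, was listed, and they are not analysed here. Of the alpha genes only IFNA1 and IFNA2 were searched, and the lambda genes were searched under older and newer names. Of 13 receptor, kinase and feedback genes 0 passed in the AGO2 knockout (edgeR, 6 at an unadjusted p under 0.05). Of all genes 3.38% rose and 2.72% fell there, so this count shows nothing particular to the list. In the ANKRD52 knockout 3 rose (23.1%, against 7.62% of all genes). In the double 4 rose and 1 fell (30.8% and 7.69%, against 22.9% and 20.1%). SOCS3, a feedback inhibitor of JAK signalling, was at 14.3, 18.1, 23.7 and 22.9 CPM and rose by 0.73 and 0.68 in the ANKRD52 and double knockouts (adjusted p = 4.46e-06 and 3.11e-06, authors' deposited tables). In the double, JAK2 (0.79) and the interferon gamma receptor chain IFNGR1 (0.50) rose and the interferon lambda receptor chain IFNLR1 fell (-0.46), in the authors' deposited table.

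Of 20 further genes of RNA and DNA sensing 3 rose in the AGO2 knockout (15%, against 3.38% of all genes) and 4 in the ANKRD52 knockout (20.0%, against 7.62%). In the double 5 rose and 4 fell (25.0% and 20.0%), shares near the 22.9% and 20.1% of all genes. ZC3HAV1, the antiviral protein ZAP that binds CpG-rich RNA, was at 123, 183, 171 and 153 CPM and rose by 0.57, 0.47 and 0.32 on the log2 scale (approximate standard error 0.09, adjusted p = 1.92e-07, 1.38e-05 and 0.00183) in the authors' deposited tables. SAMHD1, which degrades nucleotides for DNA synthesis, rose in all 3 as well, by 0.34, 0.34 and 0.44 (authors' deposited tables). IKBKE, a kinase of IRF3 and IRF7, rose by 0.76 and 0.63 in the ANKRD52 and double knockouts, and the ligase TRAF6 by 0.60 in the double, again in the authors' deposited tables.

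Of 36 further interferon-induced genes 4 rose in the AGO2 knockout (11.1%, against 3.38% of all genes; median log2 fold change of the list 0.18) and 6 in the ANKRD52 knockout (16.7%, against 7.62%; median 0.23). In the double 11 rose and 7 fell (30.6% and 19.4%, against 22.9% and 20.1%; median 0.19). The 4 strongest calls were all in the double. EPSTI1 went from 0.309 CPM in the parental line to 4.33, and LGALS9, the lectin galectin-9, from 0.270 to 7.65 CPM. EPSTI1 was also called higher in the ANKRD52 knockout (1.35 on the log2 scale, adjusted p = 0.0166, authors' deposited table). Its mean log2 CPM of 0.61 lay below the limit of 1 used for comparing knockouts. LGALS9 had an approximate standard error of 0.60 in the double, so the values of both genes are uncertain. DDX60L, a helicase related to RIG-I, fell by 2.63 (log2), from 71.9 to 11.6 CPM, and TRIM14, an adaptor of MAVS, fell by 0.68, from 77.2 to 48.3 CPM, in the authors' deposited table.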

How the data were processed

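Libraries of poly(A) RNA from 12 samples in 4 groups were made with a stranded kit, as the labels' protocols state. TopHat2 2.0.12, edgeR 3.8.6, featureCounts 1.4.6 and hg19 appear, without roles, among the submitters' processing notes. Per the file headers, each of 3 tables holds the authors' log2 fold change, mean log2 CPM, likelihood ratio score, p-value and adjusted p-value, all used as deposited. Recomputed chi-square tails (1 degree of freedom) and Benjamini-Hochberg values over 12756 genes matched the deposited p-values and adjusted p-values. No per-sample counts were used, so the authors' edgeR likelihood ratio test is the test against the parental line.

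An approximate standard error came from dividing the size of a log2 fold change by the root of its likelihood ratio. Knockouts were compared by subtracting fold changes, taking the average of the squared errors as variance. The test was a two-sided normal one, adjusted by Benjamini-Hochberg over the 11876 genes whose mean log2 CPM was 1 or more. Whether its approximate p-values hold for these data was not tested. Implied levels assume 4 equal groups. Gene order and promoter windows came from RefSeq GRCh38.p14, with 11545 genes matched by symbol, 955 by synonym and 256 not matched. Neighbours were the 10 nearest listed genes on each side, members left out, a choice made after values were seen.

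Members, lists and alternatives were chosen with earlier results of these data known. Named in full were up to 4 members per role with the smallest p and any called in every knockout, and up to 4 called genes per pathway list; other members are given by level. Alternatives were other thresholds, filters, reference distributions, variances and centring. Python 3.11.15 was used with pandas 2.3.3, matplotlib 3.10.9, scipy 1.17.1 and numpy 2.4.6.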

Additional observations from a re-analysis of the deposited data

Results flagged for a closer look

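The effects of 2 knockouts differed, by the approximate test of the difference, for the members below; all values are differences of log2 fold changes with an adjusted p under 0.05. The double knockout lay below the ANKRD52 knockout for IFIT2 (-0.94), IFIT1 (-0.89), ISG15 (-0.87), IFIT5 (-0.78), OASL (-0.75), OAS3 (-0.66), STAT2 (-0.50) and ADAR (-0.20), and above it for HERC6 (1.0) and IFITM2 (0.53). It lay below the AGO2 knockout for OASL (-0.99), ISG15 (-0.88), IFIT1 (-0.76), OAS3 (-0.65), IFIH1 (-0.58), PARP14 (-0.58), IFIT5 (-0.57), IRF1 (-0.50) and USP18 (-0.48), and above it for IRF7 (1.05), ISG20 (0.89), IFITM2 (0.64), UBE2L6 (0.50), HERC6 (0.46), MAVS (0.41) and DDX58 (0.38). The ANKRD52 knockout lay above the AGO2 knockout for IRF7 (0.99) and ISG20 (0.61) and below it for HERC6 (-0.54). IFIT5 and OAS3 were called in opposite directions against the parental line in the ANKRD52 and double knockouts.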

How the results depend on the processing

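No paired analysis was possible because the deposited tables hold no per-sample values, and for the same reason no replicate could be left out. With the F distribution the members called against the parental line were 0 for the AGO2 and 0 for the ANKRD52 knockout; over all genes it left 0 and 3 (1834 and 2473 at an unadjusted p under 0.05). Limiting the test to a mean log2 CPM of at least 3 left 5, 9 and 9 members called in the AGO2, ANKRD52 and double knockout. Over all genes so limited, 674, 1511 and 4528 were called. Fewer members were tested, and none of the remaining calls changed. With an adjusted p under 0.01 the double against the AGO2 knockout kept 10 calls and the ANKRD52 against the AGO2 knockout 1. Over all genes there were 3690 and 525. A t distribution gave 10 and 0 members (3410 and 0 over all genes). The sum of both squared errors gave 7 and 0 (2645 and 94 over all genes), with 6 for the double against the ANKRD52 knockout (1984). Centring on the median of all genes turned the sign of 1 value near 0, CMPK2 in the double knockout (-0.00052), and centring the differences that of ISG15 between the ANKRD52 and AGO2 knockouts (0.0017). All other counts of members called stayed within 1.5 times, and the median fold changes kept their direction in every setting. Against the parental line, an adjusted p under 0.01 ended the calls of IFIT3 and UBE2L6 (AGO2 knockout), DDX58, STAT2, IRF9 and DTX3L (ANKRD52) and IFIT2, OAS3 and PARP12 (double). Requiring an absolute log2 fold change of 0.5 ended those of OAS3 in each knockout, IFIT5 in both the ANKRD52 and double knockouts, UBE2L6 (AGO2), STAT2 (ANKRD52) and MAVS (double). Depth is unknown, so low members such as IRF7, TLR3 and IFIT3 are known only through their approximate errors.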

Other observations

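The genes below come from the pathway lists and were singled out after their values were seen. TRIM22, an antiviral ligase, had 0.123 CPM in the parental line and 4.09 in the double (5.05 on the log2 scale, adjusted p = 1.67e-09, authors' deposited table). It was also called higher in the AGO2 knockout, at only 0.703 CPM (2.51, approximate standard error 0.75, adjusted p = 0.0229, authors' deposited table). Its mean log2 CPM of 0.36 lay below the limit of 1 used for comparing knockouts, so these values are uncertain. TRIM21, an intracellular antibody receptor, rose by 0.65 and TRIM5, the retroviral capsid restriction factor, by 0.64, both in the double. There TRIM14 fell by 0.68, as given above. TRIM26 (0.33, adjusted p = 0.175), TRIM38 (0.10, 0.605) and TRIM56 (-0.37, 0.220) were not called in the double (authors' deposited table). DDX60, the helicase paired with DDX60L, fell by 1.28 in the double, from 10.9 to 4.51 CPM. In the AGO2 knockout NMI, the partner of IFI35, rose by 1.03 and the apolipoprotein APOL2 by 0.75, and APOL2 also rose by 0.70 in the ANKRD52 knockout (authors' deposited tables).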
